A study of Mus musculus with 4 samples.

Results

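Cycling macrophages were the cells of the deposited matrix that carried macrophage and cell division transcripts together. Members were selected on measured counts of unique molecular identifiers (UMIs, 1 per captured RNA molecule). Each had over 200 detected genes, under 20% of UMIs from mitochondrial genes, at least 10 UMIs of *Lyz2* (lysozyme, a myeloid enzyme), at least 1 UMI of *Csf1r* (the receptor for the macrophage growth factor CSF1), and at least 2 UMIs each of *Mki67* and *Top2a*. *Mki67* encodes the Ki-67 protein that coats mitotic chromosomes, and *Top2a* the topoisomerase that untangles replicated DNA. Cells with any UMI of *Cd3e*, a subunit of the T cell receptor complex, or of *Cdh5*, the cadherin of endothelial junctions, were left out. The rule gave 97 cells of the 53824 deposited cells and of the 44626 that passed the filters on genes and mitochondrial UMIs.

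The cells came from 4 mouse hearts transplanted into the abdomen of C57BL/6J recipients and taken on day 5. In the 2 allogeneic grafts the donor was a BALB/c mouse, and in the 2 syngeneic grafts it was a C57BL/6J mouse. All mice were male and 8 to 10 weeks old, and none of the labels or methods names a transgene, a drug or an immunosuppressant. Whole grafts were digested with no sort for a cell type, and RNA was captured at its 3' end on the 10x platform. The barcodes end in 1 of 4 suffixes, here called libraries 1 to 4. Neither the labels nor the methods tie a suffix to a graft, so all cells form a single pooled sample. Allogeneic and syngeneic grafts were therefore not compared, the libraries did not serve as replicates, and no test was run. Intervals are exact 95% intervals that cover counting error only.

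Macrophages are the phagocytes of tissue. In the heart, resident macrophages renew themselves in part by local division, whereas monocytes from blood enter injured or rejected tissue and become macrophages there. Growth factors that bind *Csf1r* drive macrophage survival and division. D-type cyclins with Cdk4 or Cdk6 inactivate the retinoblastoma proteins, which frees E2F factors to transcribe the genes of DNA replication in S phase. A later wave, read from promoters with CHR elements by the MuvB complex with B-Myb and FoxM1, supplies the genes of G2 phase and mitosis.

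Libraries 1, 2, 3 and 4 held 9, 2, 27 and 59 cycling macrophages. The same gate without *Mki67* and *Top2a*, called the macrophage gate, held 388, 478, 889 and 5153 cells. The cycling share of the gate was thus 2.32% (interval 1.07 to 4.36) in library 1 and 0.418% (0.0507 to 1.5) in library 2. It was 3.04% (2.01 to 4.39) in library 3 and 1.14% (0.873 to 1.47) in library 4. The interval of library 3 lay above those of libraries 2 and 4, and that of library 1 overlapped all others. Over all libraries the share was 1.40% (1.14 to 1.71). Library 4 gave 60.8% of the cycling macrophages and 74.6% of the gate. Depth differed between libraries, so the UMIs of each gate cell were drawn down to 5000, which left out 643 shallower cells. At least 1 UMI of both genes was then found in 2.41%, 0.437%, 2.73% and 1.05% of the gate cells of libraries 1 to 4, in the same order of libraries as before. With a limit of 1 UMI of each gene and no thinning the shares were 2.84%, 0.628%, 4.39% and 3.63%, so library 4 then stood above library 1 and nearer to library 3.

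**Figure D1:**
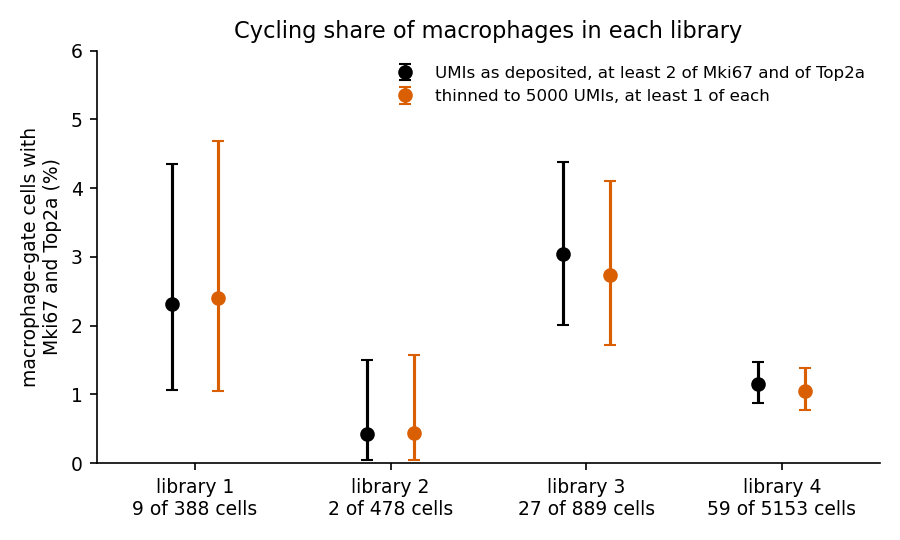
Share of macrophage-gate cells with Mki67 and Top2a UMIs (vertical axis, percent) in libraries 1 to 4 (horizontal axis, with members and gate cells), as deposited (black) and after thinning to 5000 UMIs (orange); bars are exact 95% Clopper-Pearson intervals. Library 3 had the highest share, at 3.04%, and library 2 the lowest, at 0.418%.

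Cycling macrophages were deep cells. Their median was 32379 UMIs (range 4108 to 94047), against 14913 over the macrophage gate. Non-cycling macrophages of like depth were therefore used beside them. These were gate cells with 0 UMIs of *Mki67* and of *Top2a* and a UMI total between the 10th and 90th percentiles of the cycling macrophages of the same library, 1099 cells in all. Libraries 3 and 4, the ones with at least 20 cells in each group, gave the comparisons, with 281 and 533 such cells. Their medians of 16211 and 25712 UMIs were still below the 21893 and 38428 of the cycling macrophages. Among the cycling macrophages, 2 had a barcode sequence that also occurred in another library, as did 616 of the deposited cells.

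The label was read beside 18 macrophage genes outside the rule. The median cycling macrophage had UMIs from 17 of them and the poorest cell from 10. Cycling endothelial cells had a median of 3, and cycling T cells a median of 10. Both of these groups were gated on 0 UMIs of *Csf1r*, and members on *Lyz2* and *Csf1r*. The gap to them was thus in part set by the gates. Transcripts of the 18 genes made up 2.62% of the UMIs of cycling macrophages and 2.76% of those of non-cycling macrophages, against 0.0229% in cycling endothelial cells and 0.118% in cycling T cells. Within a library the share of cycling macrophages was the lower one, at 1.82% against 2.84%, 1.25% against 1.62%, 2.89% against 3.35% and 2.64% against 2.93% in libraries 1 to 4. Some cells held transcripts of other cell types, as described next. With these left out of the cycling macrophages alone, the share in library 4 was 3.34%. With these left out of both groups, the median log2 fold of the 18 genes in library 4 was -0.096. *C1qa*, *C1qb* and *C1qc*, the chains of complement C1q, had UMIs in 91, 91 and 87 of the 97 cells.

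Transcripts of other cell types were found in some members. In 18 of the 97 cells, at least 0.1% of UMIs came from the markers of a single other cell type, and these are called mixed cells (0, 1, 4 and 13 in libraries 1 to 4). Fibroblast markers passed this limit in 8 cells, 6 of them in library 4, with 7 to 2525 UMIs each. These 8 cells had a median of 22.5 *Lyz2* UMIs, against 97 over all members, and 0 to 153 UMIs of *C1qa*. Natural killer cell markers passed it in 4 cells of library 4, with 123 to 434 UMIs, and these cells had 1, 66, 1 and 1 UMIs of *C1qa*. Smooth muscle markers passed it in 2 cells, and T cell, granulocyte, granulocyte precursor, cardiomyocyte and erythroid markers in 1 cell each. The erythroid cell held 2167 UMIs of those markers. B cell, endothelial, pericyte, Schwann cell and mast cell markers passed it in 0 cells. In libraries 3 and 4, fibroblast markers were 0.216% and 0.328% of the members' UMIs and 0.397% and 0.201% of those of non-cycling macrophages. By simulation, 13 members were marked as possible doublets (1 in library 3 and 12 in library 4), which is 13.4%, against 4.94% of the gate. Mixed cells also made up 18.9% and 8.26% of the non-cycling macrophages of libraries 3 and 4. The 18 macrophage genes made up 1.11% of the UMIs of the 18 mixed members (0.847% in the 13 of library 4) and 3.09% of those of the other 79 members. The median mixed member still had UMIs from 17 of the 18 genes, and cycling T cells had UMIs from up to 14 of them. Which mixed members were macrophages was not tested, and all stayed in the counts and folds unless stated.

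The rule genes themselves are given as a description only. *Mki67* (chromosome 7, minus strand, 135689784 to 135716361 on GRCm38) ranged from 2 to 57 UMIs per cell, with a median of 14. *Top2a* (chromosome 11, minus strand, 98992943 to 99024189) ranged from 2 to 55 UMIs, with a median of 15. Levels below are UMIs of a gene per 1000000 non-mitochondrial UMIs (CPM), pooled over the cells of a group. *Mki67* stood at 1056, 508, 605 and 333 CPM in the cycling macrophages of libraries 1 to 4. *Csf1r* stood at 552, 156, 528 and 273 CPM there, and at 636, 324, 769 and 353 CPM in the non-cycling macrophages. *Lyz2* stood at 8246 against 13939 CPM in library 3 and at 3471 against 7425 CPM in library 4.

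Cells at the edge of the rule differed between libraries in their mitotic transcripts. In the 20 cells with exactly 2 UMIs of *Mki67* or of *Top2a*, genes of G2 phase and mitosis made up a median of 0.139% of UMIs. In the 77 cells with more than 2 UMIs of both the median was 0.806%. Just outside the rule, 66 macrophages with 1 UMI of one gene and at least 2 of the other had a median of 0.0566%, close to the 0.0537% of the 5163 macrophages with neither transcript. In library 4, the 14 cells just inside had a median of 0.0813%, near the level outside the rule, against 0.647% in the 45 cells with more UMIs. In library 3 the 4 such cells had 1.05%, as did the 23 with more UMIs, so the pooled difference came with library 4.

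Members differed in their shares of S phase and mitotic transcripts. Genes of S phase (origin licensing and DNA synthesis) ranged from 0.0437% to 0.888% of a cell's UMIs, with a median of 0.238%. Genes of G2 phase and mitosis ranged from 0.0350% to 2.52%, with a median of 0.696%. The mitotic share had medians of 0.977%, 1.05% and 0.474% in libraries 1, 3 and 4, and was 0.439% and 0.806% in the 2 cells of library 2. The S phase share had medians of 0.271% in library 3 and 0.203% in library 4. Of the 97 cells, 87 exceeded the 99th percentile of non-cycling macrophages for mitotic genes (0.125%) and 46 exceeded it for S phase genes (0.245%). Both were exceeded by 44 cells, mitotic genes alone by 43 and S phase genes alone by 2. The rule asked for at least 2 UMIs each of *Mki67* and *Top2a*, and the percentiles came from cells with 0 of both. Dividing cells with few of these transcripts could not enter, so the counts do not give the phases of dividing macrophages. The other 8 cells, 7 of them in library 4, exceeded neither. In these the rule rested on 2 to 7 UMIs of *Mki67* and 2 or 3 of *Top2a*. Across cells the rank correlation of the S phase and mitotic shares was -0.34 in library 3 (27 cells) and 0.18 in library 4 (59 cells), where both shares have the same UMI total as their denominator. Without mixed cells it was -0.14 (23 cells) and 0.057 (46 cells).

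**Figure D2:**
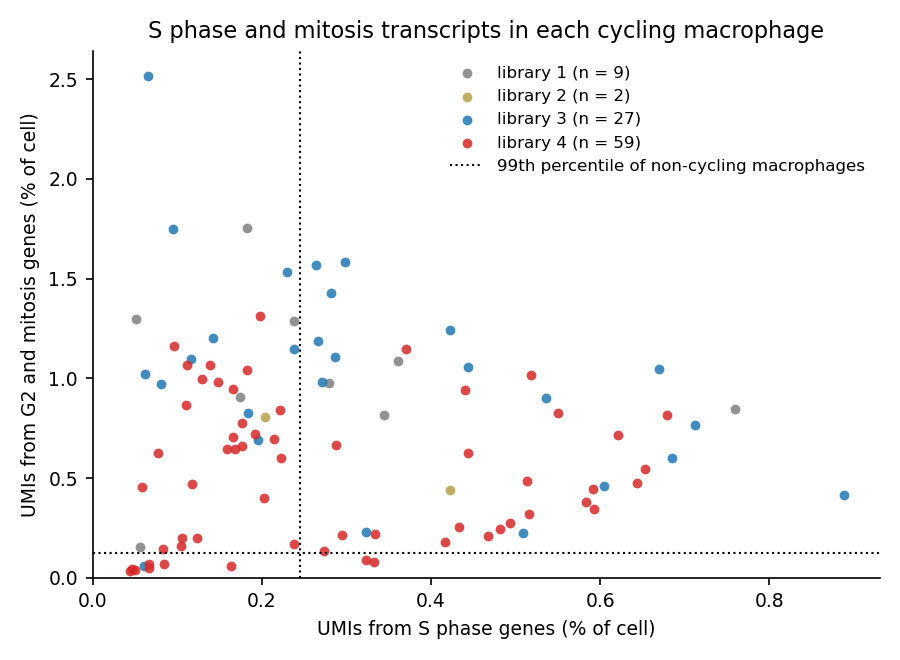
Share of UMIs from S phase genes (horizontal axis, percent) and from G2 and mitosis genes (vertical axis, percent) in each of the 97 cycling macrophages, coloured by library; dotted lines are the 99th percentiles of non-cycling macrophages (0.245% and 0.125%). Library 3 reached the highest mitotic share, 2.52%, and 8 cells lay under both lines.

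A gene was called when it stood at least 2-fold apart in the same direction in libraries 3 and 4, with 5 CPM added to each level. Folds of genes near 0 are understated by that addition. Of 5079 genes with a mean of at least 20 CPM in both libraries, 167 were called higher in cycling macrophages, a background of 3.29%, and 6 were called lower, or 0.118%. The rule chose the cells on transcripts that move with these genes, so the counts are a description of the cells and not a test. Over all 5079 genes the median log2 fold was 0.07 in library 3 and 0.04 in library 4. Leaving out mixed cells, with the depth limits unchanged, gave 180 higher genes, 159 of them among the 167, and 6 lower genes, 2 of them the same. The 8 higher genes that were lost were *Crip1* and *Snrpd1*, which fell short of 2-fold in a library, and *Anln*, *Asf1a*, *Cxcl14*, *Mcm4*, *Ndc1* and *Rnf26*, which did not pass the filter.

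The 9 lists of cell cycle genes held 202 genes outside the rule, of which 113 passed the filter. Of these, 92 were called higher and 0 lower, with median log2 folds of 2.86 in library 3 and 2.46 in library 4. The filter took the mean of both groups, so a gene near 0 in non-cycling macrophages passed it only through the cycling ones and had to differ. Of the 113 genes, 32 had at least 20 CPM in the non-cycling macrophages of both libraries, and 16 of these were called higher, where the same limit over all genes left 49 of 4667 called higher (1.05%). The counts of the lists below are therefore descriptions of the genes that passed. The other 75 of the 167 higher genes were in none of the 9 lists. The 9 lists, and the lists that follow, are described in the order in which a dividing cell uses them.

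**Figure D3:**
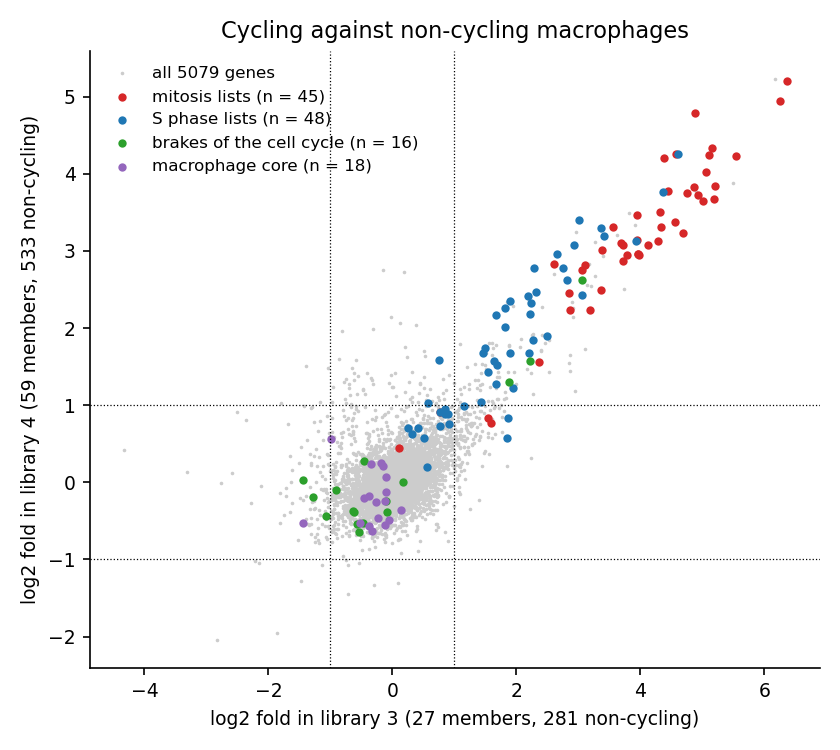
log2 fold of cycling against non-cycling macrophages in library 3 (horizontal axis) and library 4 (vertical axis), 1 point per gene for 5079 genes, with mitosis, S phase, brake and macrophage core genes coloured; dotted lines mark 2-fold. Ube2c and Birc5, which are mitosis genes, and Pclaf, which is in no list, lay furthest out in both libraries, and the 18 macrophage core genes lay within 2-fold in library 4.

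Of the G1 cyclins and Myc list, 0 of the 6 genes that passed the filter were called, with median log2 folds of 0.26 in library 3 and 0.23 in library 4. *Ccnd1*, the cyclin D1 that links growth factor signals to Cdk4 and Cdk6, stood at 36.6, 0, 113 and 177 CPM in libraries 1 to 4, against 45.5, 10.6, 89.97 and 79.6 CPM in non-cycling macrophages. It was thus higher by 1.11 on the log2 scale in library 4 and by 0.31 in library 3. Against the non-cycling macrophages of library 4 at or above the members' median depth it stood at 177 against 129.5 CPM, and with mixed cells left out of both groups at 152 against 157 CPM, so the direction turned. In library 3 it stood at 113 against 60.3 CPM beside such deeper cells and at 92.2 against 36.3 CPM with mixed cells left out. *Ccnd2* stood at 42.3 against 56.8 CPM in library 3 and 63.2 against 84.8 CPM in library 4, and *Ccnd3* at 43.6 against 36.8 and 124 against 116 CPM. *Cdk4*, the kinase of the D cyclins, had log2 folds of 0.83 and 1.08, and *Cdk6* of 0.67 and 0.38. *Max*, the partner of Myc, had log2 folds of 0.06 and -0.21. *Ccne1*, the cyclin E that starts S phase, did not pass the filter. It stood at 40.6, 19.5, 21.8 and 49.0 CPM, against 0.909, 1.36, 1.48 and 5.65 CPM, so cycling macrophages were the higher group in all 4 libraries. *Ccne2* stood at 11.5 against 0.555 CPM in library 3 and 15.5 against 0.336 CPM in library 4, and *Myc* at 21.8 against 14.1 and 12.9 against 7.87 CPM.

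Growth factor receptors and myeloid regulators were not among the genes called (0 of the 9 that passed the filter in either direction). Their median log2 folds were -0.21 and -0.34. *Csf2ra*, which binds the growth factor GM-CSF, stood at 280, 274, 199.9 and 147 CPM in libraries 1 to 4, against 232, 352, 151 and 231 CPM. *Csf2rb*, the signalling chain it shares with the receptors of IL-3 and IL-5, had log2 folds of -0.43 and -0.48, *Csf2rb2* of -0.54 and -0.51, and *Il4ra*, the receptor chain for IL-4, of -0.21 and -0.07. *Cebpb*, a factor of myeloid differentiation, had log2 folds of -0.52 and -0.75, and *Spi1*, the master factor of the myeloid lineage, of 0.10 and -0.34. *Irf8*, which drives monocyte fate, had log2 folds of 0.05 and 0.13. Of the ligands, *Csf1* stood at 3.84 CPM in library 3 and 31.4 CPM in library 4, where a single cell gave 29.9% of the members' UMIs and the level without mixed cells was 4.18 CPM. *Csf2* had 0 UMIs in the 97 cells.

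Genes of origin licensing, which load the replicative helicase onto DNA, were called higher in 11 of 14. *Mcm3*, a helicase subunit, stood at 93.4, 117, 127 and 140 CPM in libraries 1 to 4, against 23.6, 16.8, 32.2 and 25.2 CPM. *Mcm5* stood at 130, 117, 92.3 and 111 CPM, against 3.64, 5.81, 15 and 12 CPM. In both genes cycling macrophages were the higher group in every library. *Mcm6* and *Mcm7* had log2 folds of 2.20 and 2.93 in library 3 and 2.42 and 3.07 in library 4. *Uhrf1*, which carries DNA methylation through replication, had the largest fold of the list (3.01 and 3.40).

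DNA synthesis genes were called higher in 14 of 18. *Pcna*, the sliding clamp of DNA polymerases, stood at 292, 78.2, 178 and 207 CPM, against 64.6, 52.6, 60.0 and 58.3 CPM. *Lig1*, the ligase that seals the lagging strand, had log2 folds of 2.66 and 2.96. *Clspn*, a checkpoint protein at the replication fork, had the largest folds of the list (3.93 and 3.13). *Slbp*, which binds histone mRNA, had log2 folds of 1.43 and 1.04, and its call was lost (0.98 in library 4) when mixed cells were left out and the depth limits were also set anew. *Rfc2*, a clamp loader subunit, had log2 folds of 0.86 and 0.95.

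Genes of nucleotide supply were called higher in 7 of 16, and the ribonucleotide reductase genes led them. *Rrm2*, the subunit that limits the making of deoxynucleotides, stood at 211, 156, 145 and 142 CPM in libraries 1 to 4, against 0.909, 0.387, 1.11 and 2.69 CPM. It was found in 76 of the 97 cells. *Rrm1*, its partner, had log2 folds of 3.42 and 3.19 and *Dctpp1*, which clears abnormal deoxynucleotides, of 1.68 and 1.52. *Nme1*, a nucleoside diphosphate kinase, had log2 folds of 0.57 and 0.20, and *Impdh2*, which makes guanine nucleotides, of 0.91 and 0.76. Of replication-coupled repair, *Tipin*, a fork protector, was called higher (log2 folds 1.84 and 2.34).

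Histone and chromatin genes followed. All 3 replication-dependent histones that passed the filter were called higher. Their transcripts mostly lack the poly(A) tail on which the capture depends, so the counts reflect the part of them that was captured. *Hist1h2ap* stood at 946, 625, 297 and 108 CPM, against 0, 4.84, 1.67 and 2.69 CPM, with the highest level in library 1. *Hist1h1b* and *Hist1h1e*, linker histones, had log2 folds of 4.90 and 2.91 in library 3 and 3.76 and 2.26 in library 4. Condensin and chromatin genes were called higher in 14 of 15. *H2afz*, a histone variant, stood at 3367, 2365, 2920 and 2261 CPM, against 667, 344, 641 and 817 CPM, and was found in all 97 cells. *Hmgb2*, a DNA-bending protein, had log2 folds of 2.89 and 2.33, *Hmgb1* of 1.71 and 1.42, and *Dek*, a chromatin protein, of 1.73 and 1.37. *Smc2*, a condensin subunit that compacts mitotic chromosomes, had log2 folds of 4.15 and 3.05.

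Mitotic kinases and cyclins were called higher in the 13 that passed the filter (median log2 folds 3.98 and 3.14). *Cdk1*, the kinase that drives mitosis, stood at 260, 274, 331 and 161 CPM in libraries 1 to 4, against 3.64, 0.968, 9.07 and 3.70 CPM. *Ccna2*, *Ccnb1* and *Ccnb2*, its cyclins, stood at 179, 152 and 199.9 CPM in library 3 and at 110, 81.3 and 96.3 CPM in library 4. In non-cycling macrophages these cyclins stood at 0.370, 0.370 and 0.555 CPM in library 3 and at 1.08, 1.08 and 2.08 CPM in library 4. *Cks1b* and *Cks2*, small subunits of the kinase, had log2 folds of 3.95 and 2.87 in library 3 and 3.14 and 2.23 in library 4. In cycling macrophages *Cdk1* and its 3 cyclins stood higher in library 3 than in library 4. Just inside the rule, with exactly 2 UMIs of *Mki67* or of *Top2a*, were 4 of 27 and 14 of 59 cells of these libraries. Mixed cells numbered 4 and 13, and median depths were 21893 and 38428 UMIs. The part of these in the difference was not tested.

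Genes of the spindle, kinetochore and cytokinesis were called higher in all 24 that passed the filter, with median log2 folds of 4.31 and 3.35, and 0 of the 24 had at least 20 CPM in the non-cycling macrophages of both libraries. *Stmn1*, which takes microtubules apart, stood at 1564, 704, 1344 and 510 CPM, against 48.2, 7.35, 40.9 and 13.6 CPM, and was found in 89 cells. *Birc5* (survivin, which guides chromosome segregation) stood at 455, 215, 475 and 279 CPM, against 4.55, 0.194, 1.30 and 4.24 CPM. *Cenpa*, the histone of centromeres, had log2 folds of 2.61 and 2.83 and *Cdca8*, a partner of survivin, of 5.01 and 3.64. *Cenpe*, *Cenpf* and *Spc24*, kinetochore proteins, had log2 folds of 5.06, 5.16 and 4.39 in library 3 and 4.03, 4.33 and 4.21 in library 4. *Cdca3*, a trigger of mitotic entry, had log2 folds of 5.54 and 4.24.

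Genes of mitotic exit, when the anaphase-promoting complex destroys cyclin B, were called higher in 4 of 8. *Ube2c*, the ubiquitin enzyme of that complex, stood at 353, 352, 619 and 324 CPM in libraries 1 to 4, against 3.64, 0, 2.59 and 3.97 CPM. Its log2 folds of 6.36 and 5.20 were with those of *Pclaf* (6.18 and 5.23) the largest of all 5079 genes by the smaller of both libraries. *Pclaf* encodes a partner of the clamp that *Pcna* makes. *Cdc20*, which activates the complex, had log2 folds of 4.45 and 3.77 but was found in 58 cells only, and 1 cell gave 16.7% of its UMIs. *Ube2s*, the chain-extending enzyme, was found in 96 cells (2.36 and 1.56), and *Bub3*, a checkpoint protein, had log2 folds of 1.60 and 0.77.

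The promoters of these genes were read for motifs. Sequences are RefSeq's, on GRCm38.p6, from 250 bases before to 50 after a start site, and both strands were searched. The CHR element was taken as TTTGAA or TTCGAA, of which the second reads the same on both strands. The E2F site was taken as TTTGGCGC, TTTCCCGC, TTTGCCGC or TTTCGCGC, and the CCAAT box by its name. No motif is contained in another. Promoters were found for 34 of the 41 mitosis genes called higher and for 23 of the 25 such genes of licensing and DNA synthesis. A CHR element stood in 77.1% of the 35 mitosis promoters and in 25.8% of the 31 S phase promoters, against 13.9% of the promoters of all tested genes and 19.2% of all 32851 promoters. An E2F site stood in 8.57% and 29.0% of them, against 4.19% and 2.26%. A CCAAT box stood in 71.4% and 67.7%, against 36.8% and 37.4%. A match is a run of letters and not a bound site.

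The 80 bases before the start site are shown, as examples of each motif, for the most abundant called genes that hold it there, for mitosis (*Ube2c*, *Cdk1* and *Cks1b*, CHR elements in capitals) and S phase (*Mcm6* and *Rfc3*, E2F sites in capitals). The sequences run 5′ to 3′ on the strand of the gene and end next to the start site. *Ube2c* lies at chr2:164769849-164769928 on the plus strand, and the others lie on the minus strand: *Cdk1* at chr10:69352913-69352992, *Cks1b* at chr3:89418292-89418371, *Mcm6* at chr1:128359706-128359785 and *Rfc3* at chr5:151651209-151651288.
Ube2c: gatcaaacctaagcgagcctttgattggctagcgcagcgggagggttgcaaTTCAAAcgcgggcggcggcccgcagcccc
Cdk1: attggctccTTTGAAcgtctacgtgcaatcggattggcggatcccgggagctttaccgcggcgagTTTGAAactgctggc
Cks1b: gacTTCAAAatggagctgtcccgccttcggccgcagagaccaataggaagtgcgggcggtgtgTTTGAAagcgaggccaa
Mcm6: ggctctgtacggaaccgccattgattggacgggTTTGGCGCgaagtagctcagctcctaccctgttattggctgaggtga
Rfc3: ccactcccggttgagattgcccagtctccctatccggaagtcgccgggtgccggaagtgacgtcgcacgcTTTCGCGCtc
The CHR element nearest to the start site began 29, 15 and 17 bases before it in *Ube2c*, *Cdk1* and *Cks1b*. *Rfc3*, a clamp loader subunit, stood at 47.4 against 13 CPM in library 3 and 56.3 against 17.7 CPM in library 4.

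Of the 16 brakes of the cell cycle that passed the filter, 3 were called higher and 0 lower, where 3.29% of all 5079 genes were called higher. The median log2 folds were -0.51 in library 3 and -0.22 in library 4. *Cdkn2c* (p18, an INK4 inhibitor of Cdk4 and Cdk6) stood at 142, 97.7, 138 and 42.6 CPM in libraries 1 to 4, against 14.5, 4.06, 12.2 and 2.76 CPM. *Cdkn2d* (p19, of the same family) stood at 171, 117, 140 and 72.2 CPM, against 18.2, 24.0, 25.9 and 20.9 CPM. For both inhibitors every library had the cycling macrophages higher. *Rbl1*, the pocket protein p107, was the other call (log2 folds 1.88 and 1.30). It stood at 8.52 and 11.0 CPM in the non-cycling macrophages of libraries 3 and 4. *Cdkn2c* and *Rbl1* thus stood under 20 CPM there and passed the filter only through the cycling macrophages. *Cdkn1a* (p21) stood at 605, 723, 334 and 335 CPM, against 357, 542, 355 and 440 CPM, so the direction differed between libraries. Against deeper non-cycling macrophages it stood at 334 against 227 CPM in library 3 and 335 against 243 CPM in library 4, and with mixed cells left out at 304 against 183 and 385 against 351 CPM, so cycling macrophages were then the higher group in both. *Cdkn1b* (p27) had log2 folds of -0.55 and -0.64, and *Cdkn1c* (p57) had 9 members with a UMI and did not pass the filter. *Btg1* and *Btg2*, antiproliferative genes, had log2 folds of -0.63 and -0.61 in library 3 and -0.37 and -0.39 in library 4.

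The 75 higher genes outside the 9 lists included the following. *Knstrn*, *Dlgap5* and *Cenpw* act at the kinetochore or spindle, with log2 folds of 3.81, 3.40 and 3.27 in library 3 and 3.49, 2.93 and 2.68 in library 4. *Cdkn3*, a phosphatase of cyclin-dependent kinases, had log2 folds of 3.92 and 3.34, and *Gmnn*, which stops origins from firing again, of 2.92 and 2.15. The tubulin genes *Tubb5* and *Tuba1b* had UMIs in all 97 cells, with log2 folds of 2.87 and 2.95 in library 3 and 1.65 and 1.18 in library 4. *Cxcl14*, a chemokine, *Crip1*, a LIM protein, and *Snrpd1*, a splicing factor, were among the calls lost without mixed cells. These genes, and *Rfc3*, were chosen for mention after their values were seen.

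The 6 genes called lower were *S100a8*, *S100a9*, *Slfn5*, *Hspa1a*, *Fabp5* and *Gm34084*. *S100a8* and *S100a9*, alarmins of granulocytes and monocytes, stood at 1.28 and 7.69 CPM against 39.8 and 41.1 CPM in library 3, and at 19.8 and 15.5 against 97.1 and 74.4 CPM in library 4. The granulocyte list, which holds both genes, made up 0.00256% against 0.0139% of UMIs in library 3 and 0.00873% against 0.0249% in library 4. Its other 5 genes summed to 16.7 against 57.8 CPM in library 3 and to 52.0 against 77.6 CPM in library 4, and their part in the result was not tested. Without mixed cells both alarmins failed the filter and *S100a9* turned, at 7.68 against 7.23 CPM in library 3 and 16.7 against 13.5 CPM in library 4. *S100a8* then stood at 0 against 7.23 and 22.1 against 32.8 CPM. *Slfn5*, an interferon-induced gene, stood at 33.3 against 102 CPM in library 3 and 79.1 against 199 CPM in library 4. *Hspa1a*, a heat shock protein that also rises when tissue is digested, stood at 210 against 949 CPM and 101 against 215 CPM. *Slfn5* and *Hspa1a* were also called lower without mixed cells. *Fabp5*, a fatty acid carrier, and *Gm34084* were not called then. *Fabp5* still stood lower in cycling macrophages, at 264 against 1325 CPM in library 3 and 529 against 898 CPM in library 4, where it fell short of 2-fold. Against non-cycling macrophages at or above the members' median depth, 0 of the 6 genes were called lower. Without mixed cells *Hspa1b*, *Ms4a4c*, *Pim3* and *Thbs1* were called lower in their place.

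Of the 18 macrophage core genes 0 were called, with median log2 folds of -0.25 in both libraries. *C1qa* stood at 2693, 782, 4960 and 4352 CPM in libraries 1 to 4, against 4113, 1012, 5630 and 3659 CPM. *Fcer1g*, an adaptor of Fc receptors, had log2 folds of -0.06 and -0.49. *Mertk*, a receptor for dying cells, had the largest fold of the list, -1.44 in library 3 and -0.53 in library 4. In the phagocytosis and lysosome list 0 of 19 genes were called, with *Psap* and *Grn*, both lysosomal, at log2 folds of -0.19 and -0.13 in library 3 and 0.16 and 0.10 in library 4. *Axl*, a receptor of the same family as *Mertk*, had log2 folds of 0.32 and 1.04. For MHC class II, which presents antigen, 0 of 7 genes were called, and *Cd74*, its invariant chain, stood at 17552, 58.6, 6302 and 12085 CPM, against 11432, 893, 6693 and 15358 CPM. In the 2 cells of library 2 the list made up 0.0156% of UMIs, against 0.167% in the non-cycling macrophages there.

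The most abundant transcripts of cycling macrophages were those of macrophages in general. *Tmsb4x*, an actin-binding peptide, gave 1.82% of their UMIs, *Fth1* (ferritin) 1.57%, *Actb* (actin) 1.25%, *Ftl1* (ferritin) 1.12%, *Cd74* 1.10% and *Malat1*, a nuclear RNA, 0.989%. *Apoe*, the lipid carrier, gave 0.720%, but 1 cell held 13.6% of those UMIs.

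States of macrophages were described by their marker genes. Free RNA can give a cell a UMI of a gene it does not express, so each share was read beside cycling endothelial cells of library 3 and cycling T cells of library 4, whose gates demand 0 UMIs of *Csf1r*. *C1qa* had a UMI in 32.8% of those endothelial cells and 65.0% of those T cells, at median depths of 21771 and 26880.5 UMIs. Cells with at least 2 UMIs each of *Ly6c2* and *Plac8*, genes of inflammatory monocytes, were counted first. In library 4 these were 57.6% of cycling macrophages (34 of 59, interval 44.1 to 70.4) and 78.0% of non-cycling ones (74.3 to 81.5), or 15.3% and 51.6% after thinning. The gate also held 51.8% of the cycling T cells of library 4 (45.8 to 57.8), an interval that overlapped that of cycling macrophages, and activated T cells can express both genes, so its share there is not specific to monocytes. *Ly6c2* stood at 160 against 731 CPM in library 4, and *Plac8* at 1024 against 2455 CPM. *Chil3*, another monocyte gene, stood at 24.9 against 129 CPM. Non-cycling macrophages at or above the members' median depth, 42 cells, had *Ly6c2* at 325 CPM and *Plac8* at 1614 CPM, so the levels of cycling macrophages were the lower ones there too, although 59.5% of those 42 cells were in the gate (43.3 to 74.4). Of these 42 cells, 47.6% were mixed. In library 3, 0 of 27 cycling and 1.07% of non-cycling macrophages were in the gate. There 0 cells of 27, taken to allow 3 cells, limit the share to 11.1%, and the exact interval reaches 12.8%. In the infiltrating monocyte list, 0 of the 5 genes that passed the filter were called, with medians of 0.12 in library 3 and -0.07 in library 4, and *Thbs1* was called lower without mixed cells (medians 0.14 and -0.65). *Plac8*, the gene of the list most abundant in members, did not pass, at 6.41 against 31.5 CPM in library 3. The whole list made up 0.119% against 0.143% of UMIs in library 3 and 0.294% against 0.607% in library 4. *Ccr2*, the receptor that leads monocytes out of bone marrow, stood at 219 against 203 CPM in library 3 and 154 against 259 CPM in library 4.

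Cells with at least 1 UMI each of *Folr2* and *Mrc1*, a folate and a mannose receptor of resident macrophages, were counted next. They were 29.6% of cycling macrophages in library 3 (8 of 27, interval 13.8 to 50.2), against 42.0% of non-cycling ones (36.2 to 48.0). In library 4 they were 30.5% (18 of 59, 19.2 to 43.9), against 13.3% (10.6 to 16.5). The intervals overlapped in library 3 and not in library 4. In this gate were 0 of 131 cycling endothelial cells of library 3 and 0 of 280 cycling T cells of library 4. Taken to allow 3 cells, these counts limit the shares to 2.29% and 1.07%, and the exact intervals reach 2.78% and 1.31%. Taken singly, *Folr2* had a UMI in 2.29% and 0.714% of these endothelial and T cells and *Mrc1* in 7.63% and 2.50%. Depth moved with the share in library 4, where 28.6% of the 42 deeper non-cycling macrophages were in this gate. With mixed cells left out of both groups the order turned, at 37.0% of 46 cycling (23.2 to 52.5) and 54.5% of 22 deeper non-cycling macrophages (32.2 to 75.6), with *Folr2* at 68.1 against 147 CPM and *Mrc1* at 68.1 against 86.8 CPM. After thinning the shares were 6.78% and 3.19%. Thinning left 3.85% and 18.9% in library 3. Several macrophage genes ran opposite ways in the 2 libraries beside cells of like depth. *Pf4*, a chemokine of resident macrophages, stood at 1780 against 2980 CPM in library 3 and at 477 against 185 CPM in library 4. *Apoe* stood at 17059 against 34736 CPM and at 4111 against 2635 CPM. *Ms4a7* stood at 870 against 1734 CPM and at 257 against 172 CPM. In library 3 the levels of cycling macrophages were the lower ones, and in library 4 the higher ones. *Apoe* and *Ms4a7* kept these directions against deeper cells, with mixed cells kept or left out. *C1qa* did not, and stood at 4960 against 3866 CPM in library 3 beside deeper cells and at 5134 against 4695 CPM without mixed cells. Beside deeper cells *Mrc1* in library 3 was also higher (226 against 216 CPM) but not without mixed cells (239.8 against 244.9 CPM), and *Folr2* in library 4 was lower (51.2 against 71.3 CPM). The difference between the libraries was not tested. In the resident list 0 of 4 genes were called, with medians of -0.88 and 0.29, or -0.82 and 0.78 without mixed cells, and in the lipid-associated list *Fabp5* alone was called, of 11 genes.

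*Cx3cr1*, the fractalkine receptor of resident macrophages and patrolling monocytes, was higher in cycling macrophages of both libraries. It stood at 431 against 328 CPM in library 3 and at 28.8 against 4.77 CPM in library 4. Cells with *Cx3cr1* and no *Folr2* were 63.0% (42.4 to 80.6) against 45.9% (40.0 to 51.9) in library 3 and 13.6% (6.04 to 25) against 4.50% (2.91 to 6.63) in library 4. After thinning they were 69.2% against 47.7% and 6.78% against 1.13%. The gate held 3.82% of cycling endothelial cells in library 3 (1.25 to 8.68) and 12.1% of cycling T cells in library 4 (8.56 to 16.6), so the share in library 4 did not stand apart from that of T cells, some of which can express the gene. The deeper non-cycling macrophages had *Cx3cr1* at 138 CPM in library 3 and 4.52 CPM in library 4, and 36.4% and 9.52% of them were in the gate. The intervals of those shares (24.9 to 49.1 and 2.66 to 22.6) overlapped those of cycling macrophages in both libraries. *Cx3cr1* did not pass the filter in both libraries and was outside the call.

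**Figure D4:**
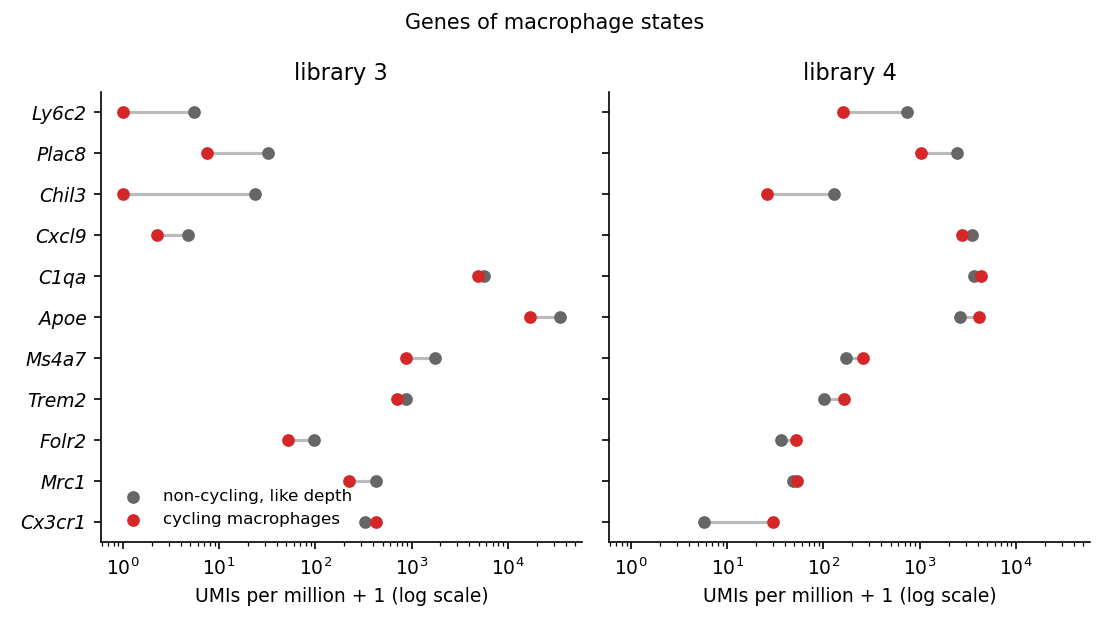
Levels of macrophage state genes (CPM plus 1, log axis) in cycling (red) and non-cycling macrophages of like depth (grey) of libraries 3 and 4, pooled over cells. Ly6c2, Plac8 and Chil3 were lower in cycling macrophages in both panels, and in library 3 stood near 0 there (0, 6.41 and 0 CPM). Cx3cr1 was higher in both panels. C1qa, Apoe, Ms4a7, Trem2, Folr2 and Mrc1 were lower in library 3 and higher in library 4. Beside deeper cells (not plotted) C1qa turned in library 3 and Folr2 in library 4, with Mrc1 depending on mixed cells. Plac8 in library 3 turned beside deeper cells with mixed cells left out (4.61 against 2.91 CPM).

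Inflammatory genes differed widely between the libraries. *Cxcl9*, an interferon-induced chemokine that draws T cells, stood at 0, 0, 1.28 and 2733 CPM in cycling macrophages of libraries 1 to 4, against 27.3, 0.581, 3.70 and 3530 CPM in non-cycling ones. Cells with at least 2 UMIs each of *C1qa* and *Cxcl9* were 79.7% (67.2 to 89.0) against 85.7% (82.5 to 88.6) in library 4 and 0 of 27 in library 3. In library 4 they were 21.4% of cycling T cells (16.8 to 26.7). *Ccl8*, *Ccl5* and *Iigp1*, also induced by interferon, stood at 15.4, 2.56 and 3.84 CPM in library 3 and at 3671, 2735 and 637 CPM in library 4. *Iigp1* fell to 385 CPM there without mixed cells, and 1 cell gave 15.1% of its UMIs. *Serpina3g* and *Gbp2b* had 0 UMIs in library 3 and stood at 409 and 301 CPM in library 4, and *Saa3*, an acute-phase protein, stood at 1.28 and 1339 CPM, with 31.7% of its UMIs in 1 cell. *Gzma*, a granzyme of killer lymphocytes, stood at 0 and 275 CPM, but 1 cell gave 49.7% of its UMIs and it fell to 20.9 CPM without mixed cells. *Gm15056* stood at 0 and 261 CPM.

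In the interferon-inflammatory list 0 of 13 genes were called, with medians of 0.54 in library 3 and -0.17 in library 4, and in the type I interferon list 0 of 7, with 0.44 and -0.36. *Cxcl10* stood at 273 against 124 CPM in library 3 and 1880 against 1593 CPM in library 4, and *Irf7* at 91.0 against 88.3 and 335 against 443 CPM. Among inflammatory cytokines 0 of 16 were called, with medians of -1.0 and -0.21 on the log2 scale in libraries 3 and 4. *Il1b* was called lower when doublet candidates were left out. *Il1b* stood at 368 against 847 CPM and 1079 against 1810 CPM, and *Cxcl2*, a chemokine for neutrophils, at 712 against 2257 and 1403 against 1839 CPM. *Ccl8* was far lower in cycling macrophages of library 3 (15.4 against 407 CPM) and not in library 4 (3671 against 2750 CPM).

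*Trem2* and *Gpnmb*, lipid-associated genes, were found together in 25.9% against 25.6% in library 3 and 10.2% against 7.50% in library 4. Beside deeper non-cycling macrophages cycling ones had the lower share in both, at 25.9% against 59.1% and 10.2% against 21.4%, and with mixed cells left out at 26.1% against 68.1% and 13% against 36.4%. Both genes were found in 0 of the 131 cycling endothelial cells and in 0.357% of the cycling T cells. *Ace* and *Ear2*, of nonclassical monocytes, were found together in 1 cell of library 1, and *Cd209a* or *Flt3*, of dendritic cells, in 6 of the 97. The latter were 7.41% against 2.49% in library 3 and 3.39% against 1.31% in library 4, with 2 members each and overlapping intervals. After thinning they were 0% against 0.712% and 3.39% against 0.375%. The nonclassical and dendritic lists had 1 gene each past the filter, *Nr4a1* (log2 folds -0.78 and -0.16) and *Batf3* (0.24 and 0.19), and neither was called.

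None of the lists of growth metabolism held a called gene. Ribosome biogenesis had 0 of 14 genes called, with medians of 0.44 and 0.52 on the log2 scale. *Npm1* and *Ncl*, the main nucleolar proteins, had log2 folds of 0.13 and 0.47 in library 3 and 0.58 and 0.51 in library 4, and *Nop58*, of the ribosomal RNA methylation complex, had 1.07 and 0.94. Glycolysis had 0 of 15 genes called (medians 0.13 and -0.19), with *Gapdh* at 2609 against 1688 CPM and 4342 against 5150 CPM. Oxidative phosphorylation had 0 of 31 called (0.22 and -0.11), with *Cycs*, cytochrome c, at 305 against 176 and 636 against 621 CPM. Uptake of iron and amino acids had 0 of 8 called (-0.19 and -0.30), where *Slc40a1*, the iron exporter, was found in 8 members.

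Cycling macrophages were set beside the other cycling cells of the same libraries by the same *Mki67* and *Top2a* limits. Of 891 such cells, 136 were endothelial (131 in library 3) and 283 were T cells (280 in library 4), so each lineage was compared within 1 library. In library 3 the spindle list made up 0.579% of the UMIs of cycling macrophages and 0.612% of those of cycling endothelial cells, and the licensing list 0.125% and 0.105%. In library 4 the spindle list made up 0.289% in cycling macrophages and 0.404% in cycling T cells, and the licensing list 0.122% and 0.208%. Median depths were 21893 and 21771 UMIs in library 3 and 38428 and 26880.5 in library 4. Of the 59 cycling macrophages of library 4, 14 stood just inside the rule and 13 were mixed, and such cells were not counted among the T cells. Ribosome biogenesis genes made up 0.207% in macrophages and 0.595% in T cells of library 4, and 0.205% against 0.212% in endothelial cells of library 3.

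Genes of G1 control were compared in the same cells. *Ccnd1* stood at 113 CPM in cycling macrophages and 439 CPM in cycling endothelial cells of library 3, and at 177 CPM against 7.22 CPM in cycling T cells of library 4. *Ccnd2* stood at 42.3 against 163 CPM and at 63.2 against 150 CPM. *Cdk6* stood at 138 against 38.6 CPM in library 3 and at 43.9 against 133 CPM in library 4. *Cdkn1a* stood at 334 against 633 CPM and at 335 against 53.6 CPM. *Cdkn2c* stood at 138 against 163 CPM and at 42.6 against 35.1 CPM. Each is a value of a single library.

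**Figure D5:**
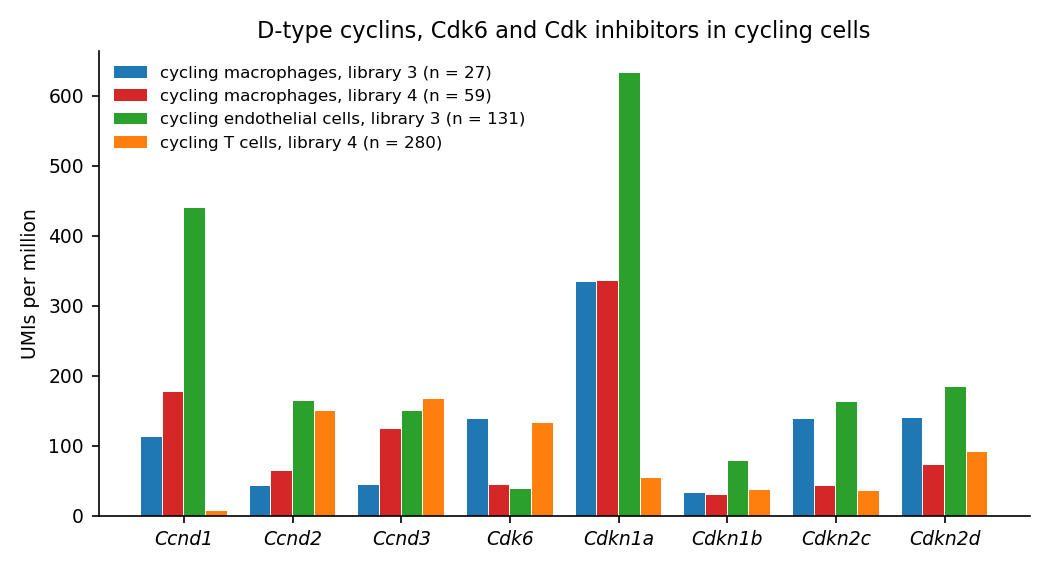
Levels of D-type cyclins, Cdk6 and Cdk inhibitors (CPM) in cycling macrophages of libraries 3 and 4, cycling endothelial cells of library 3 and cycling T cells of library 4; each bar pools the cells of 1 library and has no replicate. Cycling T cells had Ccnd1 at 7.22 CPM and Cdkn1a at 53.6 CPM, the lowest bars of those genes.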

How the data were processed

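The deposited matrix holds whole-number counts of UMIs for 30905 genes in 53824 cells (516154088 UMIs in all; 96020294, 115162601, 138892048 and 166079145 in libraries 1 to 4). The authors made these counts with Cell Ranger (3.0.0 in the matrix header) on the mm10 build from 3' libraries, merged the 4 libraries into 1 matrix, and no filter on cells is stated for it. Cells were filtered and gated on UMI counts as described above, and groups were summed within a library and scaled to CPM.

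Comparisons used libraries with at least 20 cells in each group, genes with a mean of at least 20 CPM in both libraries and 5 CPM added before the log2 fold. The rule genes were left out of the calls. Shares have exact Clopper-Pearson intervals (95%). No test was run, since the unassigned libraries were not used as replicates.

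Doublets were kept and marked by simulation, as the 5% of each library with the most simulated doublets among 50 neighbours (2000 genes, 10 principal components). The limit of 0.1% for mixed cells, the comparison with the deeper cells and the filter on the level in non-cycling macrophages were added after the data were seen. Leaving out cells kept the depth limits of all members, unless set anew. Members and gene lists were chosen with earlier results of these data known. Named genes were the rule genes, up to 4 abundant genes and the largest fold of each list, the largest calls genome-wide, the most abundant genes, those that differed most between libraries, and all Cdk inhibitors, G1 cyclins and growth factor receptors; other genes are markers of the states or were picked later. Coordinates are those of GENCODE M21. Some genes that the rule names are not reported here.

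Analyses ran in Python 3.11.15 with numpy 2.4.6, pandas 2.3.3, scipy 1.17.1, scikit-learn 1.9.0 and matplotlib 3.10.9. The fold step was tested on simulated counts, and the thinning step on real non-cycling macrophages.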

Additional observations from a re-analysis of the deposited data

Results flagged for a closer look

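Cells that met the UMI limits for *Lyz2*, *Csf1r*, *Mki67* and *Top2a* but were left out by another part of the rule are signals outside the comparisons. A *Cd3e* UMI left out 50 cells, all in library 4, of which 10 had exactly 1 such UMI. Their median depth was 37253 UMIs. A *Cdh5* UMI left out 38 cells (4, 2, 19 and 13 in libraries 1 to 4), of which 25 had exactly 1, with a median of 35738.5 UMIs. Both UMIs were found in 6 cells, so 82 cells were left out for either. The filters on genes and mitochondrial UMIs left out 2 further cells, 1 in library 3 and 1 in library 4. What part of these cells were macrophages was not tested.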

How the results depend on the processing

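No paired analysis was possible because no result comes from a test and the barcodes carry no replicate number of the grafts; each fold was taken within a library. With at least 1 UMI of *Mki67* and *Top2a* the rule gave 240 cells (3.47% of the gate), 71 higher genes, 1 lower gene and 5 lists at least 2-fold higher in both libraries, where the limit of 2 UMIs gave 8 lists. With at least 3 UMIs the share was 1.11%. Thinning to 2000 UMIs gave 0.467% in place of 1.29%. Leaving out each library in turn gave 38 to 95 cells and a share of 1.16% to 2.17%, the highest share without library 4. It gave 167 to 388 higher genes (280 without library 3, 388 without library 4) and 6 to 182 lower genes (22 without library 3, 182 without library 4), since a single library then makes the call. A filter of 5 CPM gave 332 higher genes, no filter 363 higher and 10 lower, and a limit of 1.5-fold 323 higher and 41 lower. A filter also on the level in non-cycling macrophages gave 49 higher genes and 4 lists at least 2-fold higher in both libraries, since fewer genes were left. No depth limit on the comparison cells gave 13 lower genes. Deeper comparison cells gave 177 lower genes, led by the matrix genes *Wisp2*, *Cthrc1* and *Col1a1*, and 47.6% of those cells in library 4 were mixed. With mixed cells left out as well the number was 12, and 2 of 8 states in library 4 had the higher share among cycling macrophages, in place of 5. *S100a9* changed sign without mixed cells (0.142 on the log2 scale, or 0.039 with the depth limits set anew) and against deeper unmixed cells (0.14), and *Ccl8* (-4.34 without library 4, 0.42 without library 3) and *Ccl5* (-3.31 and 0.13) had opposite signs in the 2 libraries. For these the cause was not tested. Leaving out doublet candidates gave 3 lower genes, or 4 with the depth limits set anew. Lower genes numbered 4 beside all gated non-members and 9 with the filter of 5 CPM. With depth limits set anew after leaving out mixed cells, the comparison cells of library 4 went from 489 to 1242, *Slbp* lost its call and *Il1b* was called lower. Apart from the changes above that passed 1.5 times or left an interval, 72 summary values moved by at most 1.5 times or stayed in their interval. Libraries 1 and 2 gave 9 and 2 members and entered no fold.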
